A study of Homo sapiens with 8 samples.

Results

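The amino acid transporter genes were taken as the genes named as members of the solute carrier families SLC1A, SLC3A, SLC6A, SLC7A, SLC36A, SLC38A or SLC43A that had at least 1 transcript annotated as protein-coding. The rule found 43 of the 33711 genes in the expression data, and 1 further gene that matched by name, SLC36A3, had no protein-coding transcript and was not a member. Of the 43 members, 30 averaged 1 FPKM or more across the 4 libraries and were tested, and 13 did not. FPKM express a level as fragments per kilobase relative to the number of mapped fragments in a library, and a gene's level was the sum over its transcripts. No measured value entered the rule.

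Amino acid transporters carry amino acids across the plasma membrane and across the membranes of organelles such as the lysosome. Some use the sodium or proton gradient to concentrate their substrate, whereas others exchange 1 amino acid for another or let it pass down its gradient. Several of the SLC7 proteins reach the cell surface only as a light chain bound to a heavy chain, CD98hc, the product of SLC3A2. In tumour cells the carriers of glutamine, leucine and cystine are much studied, because these amino acids feed protein synthesis, the mTORC1 growth pathway and glutathione synthesis.

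HCT116, a human colorectal cancer cell line, was transfected, with the jetPRIME reagent, with an siRNA against YTHDF3 (si-YTHDF3) or with a negative control siRNA (NC). YTHDF3 is a cytoplasmic protein that reads N6-methyladenosine (m6A) in RNA. For each condition there were 2 input libraries of total RNA and 2 IP libraries, made from RNA pulled down by an m6A antibody, and only the 4 input libraries had expression values. The comparison of si-YTHDF3 with NC input asked how RNA levels differed after YTHDF3 knockdown. Both groups were the same line under the same transfection, and no untransfected cells were among the samples. Knockdown was transient and partial, so that no library was free of YTHDF3 RNA. Different siRNAs against YTHDF3 were listed in the study's materials under the names si-YTHDF3-1 and si-YTHDF3-2, which are also the names in the titles of the si-YTHDF3 libraries, so that each library may have received its own siRNA. The labels did not state this, nor whether the libraries of a group came from separate cultures, and p-values therefore measured only how far these libraries varied, possibly for technical reasons.

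YTHDF3 (GRCh38, chromosome 8, 63168553 to 63212786) had 2.53 and 3.25 FPKM in the si-YTHDF3 libraries, against 25.9 and 12.0 FPKM in the NC libraries. Both si-YTHDF3 libraries were below both NC libraries, while the NC libraries differed from each other. The log2 fold change was -2.27 (SE 0.35, limma, adjusted p = 0.135), and the adjusted p was 0.367 with si-YTHDF3 replicate 1 left out, 0.514 with si-YTHDF3 replicate 2 left out, 0.0251 with NC replicate 1 left out and 0.00421 with NC replicate 2 left out. With 1 library left out, the single library of that group is assumed to vary like those of the other group. Each log2 fold change here and below sets si-YTHDF3 against NC after 1 was added to the FPKM, and so makes differences of genes with low values look smaller. All members together had 976 and 980 FPKM in si-YTHDF3 libraries and 1062 and 963 FPKM in NC libraries, which was 0.260% and 0.256% against 0.286% and 0.259% of all FPKM. Of 11 markers of colon epithelium 10 were listed and 8 reached a mean of 1 FPKM, with sums of 1730 and 1928 FPKM in si-YTHDF3 and 1835 and 1642 FPKM in NC. Of 6 fibroblast, 6 leukocyte, 3 endothelial and 3 neuronal markers, 1, 1, 0 and 1 reached 1 FPKM. These were COL1A1, CD68 and SYT1, of which SYT1 had 22.9 and 19.6 FPKM in si-YTHDF3 and 31.5 and 27.0 FPKM in NC. Whether the cells behind this RNA had a part in the results was not tested, and in bulk RNA fewer cells with a transcript and less transcript per cell cannot be told apart.

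The RNA of 4 members dominated the group. These were SLC7A5, SLC38A2, SLC3A2 and SLC1A5, which held 66.4% and 66.9% of the members' FPKM in the si-YTHDF3 libraries and 67.1% and 67.4% in the NC libraries. They encode LAT1, the exchanger of leucine and other large neutral amino acids, SNAT2, a sodium-coupled carrier of small neutral amino acids, CD98hc, and ASCT2, a sodium-dependent exchanger of glutamine and other neutral amino acids. Among the 14457 genes tested, their mean levels lay above 97.4% to 98.1% of genes. No member of the 30 tested passed the adjusted threshold of 0.05 in limma, with adjusted p-values between 0.205 and 0.988, against 0.0277% of all genes tested that were higher in si-YTHDF3 and 0% that were lower. At an unadjusted limma p under 0.05, 2 members were higher and 4 were lower in si-YTHDF3, which compares with 8.29% of all genes tested higher and 6.53% lower.

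**Figure D1:**
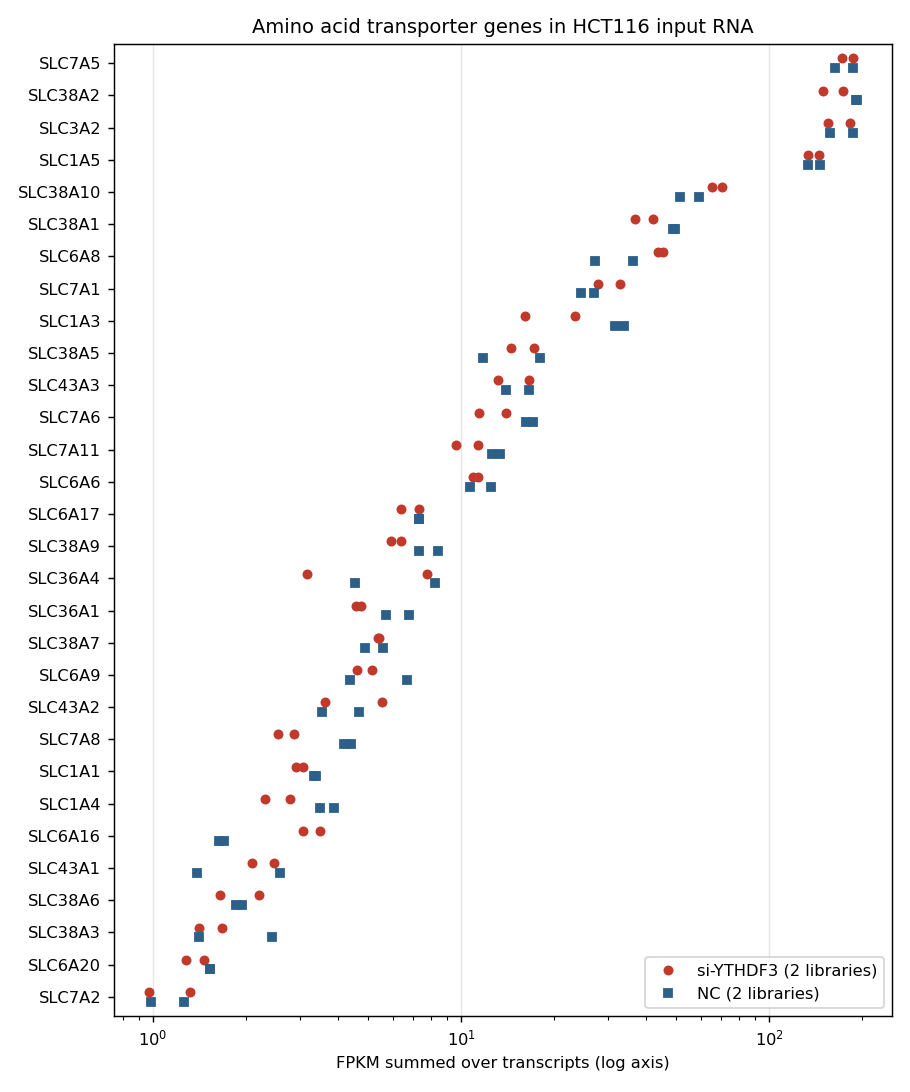
FPKM summed over transcripts (log axis) of the 30 amino acid transporter genes with a mean of at least 1 FPKM, in the 2 si-YTHDF3 libraries (red circles) and the 2 NC libraries (blue squares), ordered by mean level. Levels ran from about 1 FPKM for SLC7A2 to between 134 and 193 FPKM for SLC1A5, SLC3A2, SLC38A2 and SLC7A5, and the spread between genes was far larger than that between groups.

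SLC7A5 (chromosome 16, 87830023 to 87869488) had 173 and 188 FPKM in si-YTHDF3 libraries and 188 and 164 FPKM in NC libraries. Its groups overlapped, and the log2 fold change was 0.04 with a 95% interval of -0.28 to 0.36. SLC3A2 (chromosome 11, 62856102 to 62888875) had 156 and 183 FPKM in si-YTHDF3 libraries and 187 and 158 FPKM in NC libraries, with a log2 fold change of -0.02 and an interval of -0.39 to 0.34. In both genes the libraries of a group differed by more than the group means did. SLC1A5 (chromosome 19, 46774883 to 46788594) had 145 and 134 FPKM in si-YTHDF3 libraries and 146 and 134 FPKM in NC libraries, and its log2 fold change was -0.01 with an interval of -0.30 to 0.29. The 3 intervals did not reach a 2-fold difference in either direction.

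LAT1, LAT2, xCT and the y+LAT exchangers all need CD98hc, so that the heavy and light chain levels were set side by side. The FPKM of SLC7A5 alone was 111% and 103% of that of SLC3A2 in the si-YTHDF3 libraries, and 100.4% and 104% in the NC libraries. All 6 light chain genes that pair with SLC3A2 summed to 129% and 116% of SLC3A2 in si-YTHDF3 and to 119% and 125% in NC. SLC7A5 made up 85.9% and 88.8% of the light chain FPKM in the si-YTHDF3 libraries against 84.7% and 82.7% in the NC libraries. The ratio of light to heavy chain FPKM thus overlapped between the groups, whereas the share of SLC7A5 in the light chain FPKM did not. Both are RNA values summed over all transcripts and not protein levels. The share was not tested with protein-coding transcripts alone. The other light chain genes that averaged 1 FPKM or more, SLC7A6, SLC7A8 and SLC7A11, were lower in both si-YTHDF3 libraries. So were 23.7% of all genes tested, and none of these light chain genes passed the adjusted threshold. The lower value of SLC7A8 was not kept with protein-coding transcripts alone (log2 fold change 0.08). SLC7A11, the xCT subunit that imports cystine for glutamate, averaged 10.5 ± 1.21 FPKM in si-YTHDF3 and 13.0 ± 0.546 FPKM in NC (SD, n = 2 each; log2 fold change -0.28, limma adjusted p = 0.409).

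**Figure D2:**
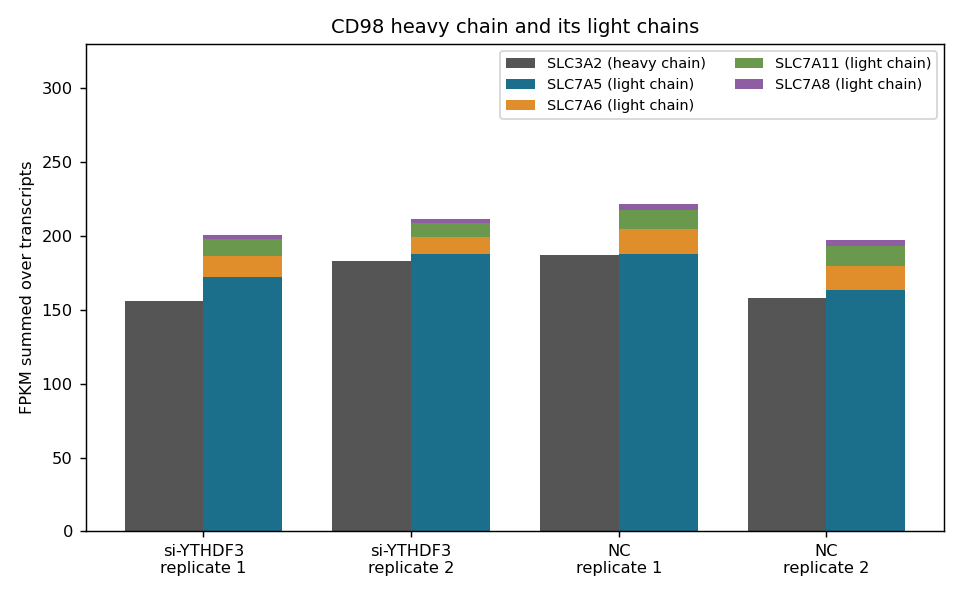
FPKM summed over transcripts of the CD98 heavy chain gene SLC3A2 (grey bars) and of its 4 light chain genes above 1 FPKM (stacked bars) in each si-YTHDF3 and NC library. SLC7A5 filled most of the light chain bar in each library, and its FPKM was between 100.4% and 111% of that of SLC3A2.

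SLC7A6 (chromosome 16, 68264516 to 68301823), which encodes y+LAT2, an exchanger of cationic for neutral amino acids, had 14.0 and 11.4 FPKM in si-YTHDF3 libraries and 17.1 and 16.3 FPKM in NC libraries. Both si-YTHDF3 libraries were below both NC libraries, with a log2 fold change of -0.38 (SE 0.15, limma adjusted p = 0.335). SLC7A8 (chromosome 14, 23125295 to 23183674), the LAT2 light chain, had 2.86 and 2.54 FPKM in si-YTHDF3 libraries and 4.16 and 4.39 FPKM in NC libraries. The groups did not overlap, the log2 fold change was -0.51 (SE 0.14, limma adjusted p = 0.241), and with protein-coding transcripts alone it was 0.08. The gene SLC7A6OS overlaps SLC7A6 on the opposite strand and had 10.2 and 10.7 FPKM in si-YTHDF3 and 13.5 and 10.1 FPKM in NC. Strandedness of the libraries was not given in the sources used here, and the reads of such pairs may not have been told apart.

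Among the SLC38 family, the sodium-coupled SNAT carriers, SLC38A2 and SLC38A1 were at lower values in both si-YTHDF3 libraries and SLC38A10, the second most abundant gene of the family, at higher values. SLC38A2 (chromosome 12, 46358189 to 46372867) had 174 and 150.2 FPKM in si-YTHDF3 libraries and 192 and 193 FPKM in NC libraries (log2 fold change -0.25, SE 0.12, limma adjusted p = 0.406). SLC38A1 (chromosome 12, 46183063 to 46269951), which encodes SNAT1, a carrier of glutamine and alanine, had 42.1 and 36.8 FPKM in si-YTHDF3 libraries and 48.9 and 49.7 FPKM in NC libraries (log2 fold change -0.32, SE 0.13, limma adjusted p = 0.343). The groups overlapped in neither gene, and the pair summed to 217 and 187 FPKM in si-YTHDF3 against 240 and 243 FPKM in NC. SLC38A10 (chromosome 17, 81245000 to 81295547), a less studied relative, had 65.3 and 70.3 FPKM in si-YTHDF3 libraries and 59.2 and 51.6 FPKM in NC libraries. Its si-YTHDF3 libraries were both the higher (log2 fold change 0.29, SE 0.13, limma adjusted p = 0.371).

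The other SLC38 genes were expressed at far lower levels. SLC38A9, a lysosomal protein that senses arginine for mTORC1, averaged 6.17 ± 0.321 FPKM in si-YTHDF3 and 7.86 ± 0.789 FPKM in NC (SD, n = 2 each) with no overlap between the groups. SLC38A7, which carries glutamine and asparagine out of the lysosome, averaged 5.41 ± 0.0401 FPKM in si-YTHDF3 and 5.22 ± 0.492 FPKM in NC. SLC38A5, a carrier of glutamine and serine, averaged 15.9 ± 1.88 FPKM in si-YTHDF3 and 14.9 ± 4.42 FPKM in NC. SLC38A7 and SLC38A5 thus overlapped between the groups. SLC38A6 averaged 1.93 ± 0.399 FPKM in si-YTHDF3 and 1.90 ± 0.0665 FPKM in NC, and SLC38A3, a glutamine carrier best known from liver and brain, averaged 1.54 ± 0.181 FPKM in si-YTHDF3 and 1.92 ± 0.726 FPKM in NC. Over the 8 SLC38 genes tested, 4 had a log2 fold change above 0 and 4 below, with a median of -0.09. Of all genes tested, 52.0% were above 0 and 48.0% below.

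The SLC1 family holds the glutamate carriers and the ASCT exchangers of neutral amino acids. SLC1A3 (chromosome 5, 36606355 to 36688334), which encodes EAAT1, a carrier of glutamate and aspartate, had 23.4 and 16.2 FPKM in si-YTHDF3 libraries and 31.5 and 33.8 FPKM in NC libraries. Both si-YTHDF3 libraries were below both NC libraries and also differed from each other, and the log2 fold change of -0.72 (SE 0.20, limma adjusted p = 0.237) was the lowest of the 30 members. SLC1A4 (chromosome 2, 64988477 to 65023865), which encodes ASCT1, an exchanger of alanine, serine and cysteine, had 2.31 and 2.79 FPKM in si-YTHDF3 libraries and 3.87 and 3.49 FPKM in NC libraries. Its groups were apart, with a log2 fold change of -0.40 (SE 0.15, limma adjusted p = 0.325). SLC1A1, the glutamate carrier EAAT3, averaged 2.99 ± 0.110 FPKM in si-YTHDF3 and 3.36 ± 0.0272 FPKM in NC (SD, n = 2 each; log2 fold change -0.13). With SLC1A5, all 4 tested SLC1 genes had a log2 fold change below 0, against 48.0% of all genes tested, and their median was -0.26. SLC1A5 was at -0.01 with overlapping groups, and 0 of the 4 genes passed the adjusted threshold.

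The SLC6 family carries creatine, taurine, glycine and neurotransmitters with sodium and chloride. SLC6A8 (chromosome X, 153688099 to 153696593), the creatine transporter, had 45.2 and 43.5 FPKM in si-YTHDF3 libraries and 36.1 and 27.2 FPKM in NC libraries. The si-YTHDF3 libraries were close together and above both NC libraries, which differed from each other (log2 fold change 0.49, SE 0.17, limma adjusted p = 0.298). SLC6A16 (chromosome 19, 49289638 to 49325225), which encodes a protein of the family with no known substrate, had 3.07 and 3.48 FPKM in si-YTHDF3 libraries and 1.64 and 1.70 FPKM in NC libraries. Its groups were well separated at a low level, and the log2 fold change of 0.68 (SE 0.15, limma adjusted p = 0.205) was the highest of the 30 members. On the FPKM scale itself the ratio of its group means was 1.96. The gene MIR4324 overlaps SLC6A16 on the same strand. It had 2.56 and 3.10 FPKM in si-YTHDF3 and 1.37 and 1.22 FPKM in NC. Its part in the SLC6A16 values was not tested.

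The remaining SLC6 genes did not separate the groups, apart from SLC6A20. SLC6A6, the taurine transporter, averaged 11.1 ± 0.326 FPKM in si-YTHDF3 and 11.6 ± 1.31 FPKM in NC (SD, n = 2 each). SLC6A9, the glycine transporter, averaged 4.86 ± 0.366 FPKM in si-YTHDF3 and 5.52 ± 1.62 FPKM in NC, and is overlapped on the opposite strand by CCDC24 at 6.32 to 8.89 FPKM. SLC6A17, known as a vesicular carrier of neutral amino acids in neurons, averaged 6.84 ± 0.664 FPKM in si-YTHDF3 and 7.29 ± 0.0185 FPKM in NC. SLC6A20, a carrier of proline and other imino acids, was lower in both si-YTHDF3 libraries by a small margin, with 1.37 ± 0.127 FPKM in si-YTHDF3 and 1.53 ± 0.00256 FPKM in NC.

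Cationic, proton-coupled and facilitative carriers completed the group. SLC7A1 (chromosome 13, 29509410 to 29595688), which encodes CAT1, the arginine and lysine carrier, had 27.8 and 32.8 FPKM in si-YTHDF3 libraries and 27.0 and 24.5 FPKM in NC libraries (log2 fold change 0.22, SE 0.14, limma adjusted p = 0.497). Its groups were apart by less than 1 FPKM. SLC7A2, which encodes CAT2, was the lowest of the tested members, with 1.14 ± 0.245 FPKM in si-YTHDF3 and 1.12 ± 0.200 FPKM in NC (SD, n = 2 each). SLC36A1, a proton-coupled carrier of small amino acids at the lysosome and plasma membrane, averaged 4.65 ± 0.117 FPKM in si-YTHDF3 and 6.25 ± 0.753 FPKM in NC, without overlap (log2 fold change -0.36, limma adjusted p = 0.342). Its relative SLC36A4 averaged 5.45 ± 3.26 FPKM in si-YTHDF3 and 6.40 ± 2.63 FPKM in NC and had the largest spread within a group of all 30 members on the log2 scale. SLC43A2, which lets neutral amino acids pass down their gradient, averaged 4.57 ± 1.37 FPKM in si-YTHDF3 and 4.11 ± 0.793 FPKM in NC, and SLC43A1, of the same kind, averaged 2.29 ± 0.267 FPKM in si-YTHDF3 and 1.99 ± 0.850 FPKM in NC. SLC43A3, the third gene of that family by name but known as a purine nucleobase carrier, averaged 14.9 ± 2.40 FPKM in si-YTHDF3 and 15.3 ± 1.82 FPKM in NC, and all SLC43 genes overlapped between the groups.

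Counted over the 30 tested members, both si-YTHDF3 libraries lay above both NC libraries in 4 genes and below them in 11 genes, against 25.3% of all genes tested above and 23.7% below. The 4 genes were SLC38A10, SLC6A16, SLC6A8 and SLC7A1. The 11 genes were SLC1A1, SLC1A3, SLC1A4, SLC36A1, SLC38A1, SLC38A2, SLC38A9, SLC6A20, SLC7A6, SLC7A8 and SLC7A11. The log2 fold change was above 0 in 11 members and below 0 in 19, where 52.0% of all genes tested were above 0 and 48.0% below. The median log2 fold change was -0.07 over the members and 0.01 over all genes tested, and it was 0.04 over the members without NC replicate 1. No member reached a 2-fold difference in either direction at an unadjusted limma p under 0.05, against 0.436% of all genes tested higher and 0.353% lower, and the log2 fold changes ran from -0.72 to 0.68. These values rest on sums over all transcripts. With protein-coding transcripts alone the log2 fold change of SLC1A3 was -1.34.

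**Figure D3:**
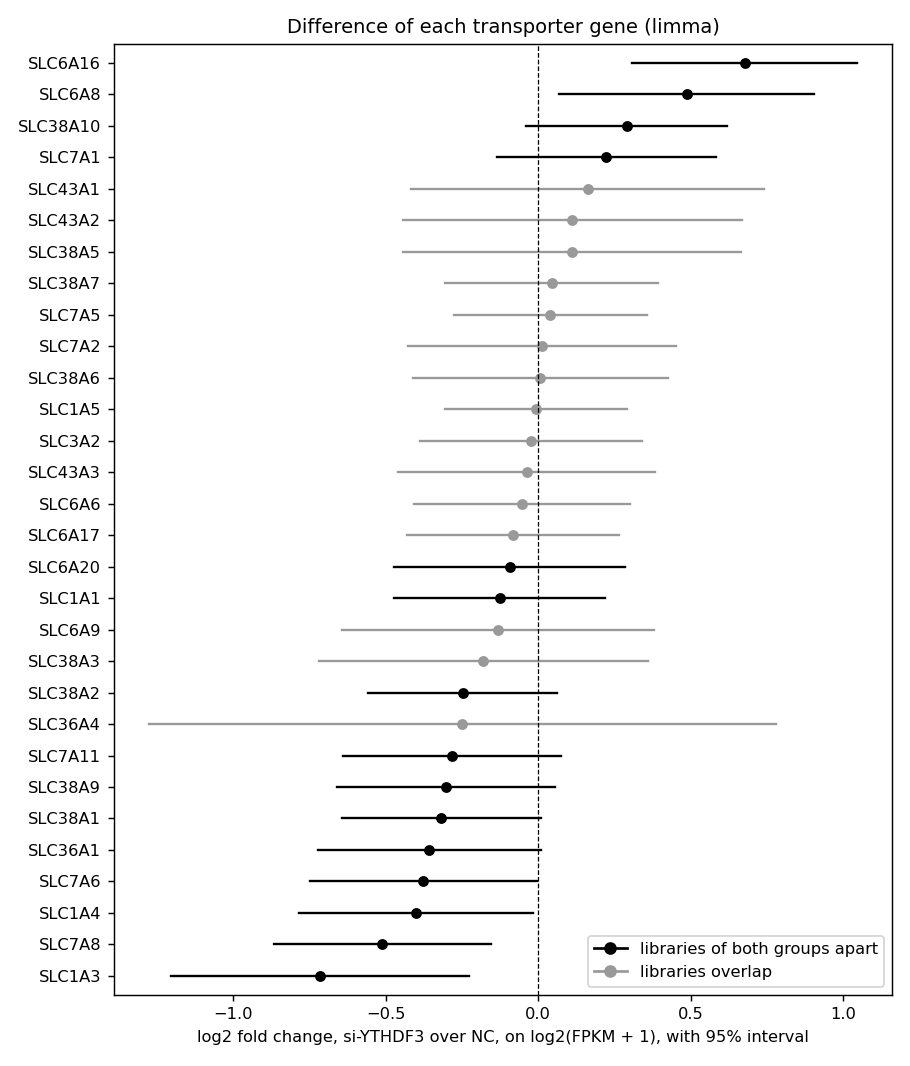
Log2 fold change of si-YTHDF3 over NC with 1 added to the FPKM (points) and its 95% interval from limma (lines), for the 30 tested transporter genes. Black marks the 15 genes whose si-YTHDF3 and NC libraries did not overlap and grey those that overlapped. SLC6A16 at 0.68 and SLC1A3 at -0.72 form the ends.

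The members had 338 transcripts in the data, of which 87 reached a mean of 1 FPKM and were tested. None passed the adjusted threshold (limma), where 0% of all transcripts tested passed in either direction. At an unadjusted limma p under 0.05, 2 transcripts were higher and 1 was lower in si-YTHDF3, against 3.98% higher and 3.22% lower of all transcripts tested. With a 2-fold difference added, 0 were higher and 1 was lower, against 2.22% higher and 1.89% lower. Both si-YTHDF3 libraries lay above both NC libraries in 16 of the 87 transcripts and below in 20, against 20.6% and 19.1% of all transcripts tested. The log2 fold change was above 0 in 41 and below 0 in 46, against 51.3% and 48.7%. The 3 transcripts at an unadjusted p under 0.05 were named after their values had been seen. The 2 higher ones were ENST00000253122 of SLC6A8 and ENST00000597969 of SLC6A16, and the lower one was ENST00000397310 of SLC7A8, annotated as a retained intron. ENST00000253122, the most abundant SLC6A8 transcript, had 21.0 and 22.7 FPKM in si-YTHDF3 libraries and 12.4 and 12.5 FPKM in NC libraries (log2 fold change 0.77, limma adjusted p = 0.413). Libraries of each group were almost equal in it, and the other SLC6A8 transcripts above 1 FPKM overlapped between the groups.

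The lower SLC1A3 value came with a different make-up of transcripts. ENST00000265113, a protein-coding transcript, had 0.0575 and 7.39 FPKM in si-YTHDF3 libraries and 22.2 and 21.5 FPKM in NC libraries, or 0.246% and 45.7% against 70.6% and 63.7% of the SLC1A3 FPKM. It was far lower in both si-YTHDF3 libraries, and those libraries also differed widely from each other (log2 fold change -2.94, limma adjusted p = 0.726). ENST00000381918, another protein-coding transcript, had 6.18 and 2.50 FPKM in si-YTHDF3 libraries and 0.0913 and 2.68 FPKM in NC libraries, and its groups overlapped. With the protein-coding transcripts alone the log2 fold change of SLC1A3 was -1.34 (limma adjusted p = 0.138). The overlapping gene AC008957.3, on the same strand, had 4.67 and 4.65 FPKM in si-YTHDF3 and 5.93 and 5.43 FPKM in NC, and its part in the SLC1A3 values was not tested.

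SLC7A6 divided its FPKM between transcripts differently in si-YTHDF3 replicate 1. ENST00000219343 had 1.77 and 4.90 FPKM in si-YTHDF3 libraries and 8.27 and 8.68 FPKM in NC libraries, whereas ENST00000566454, of almost equal length, had 8.54 and 2.12 FPKM in si-YTHDF3 libraries and 1.29 and 1.31 FPKM in NC libraries. ENST00000566454 was thus the more abundant of the pair in 1 of 4 libraries only, si-YTHDF3 replicate 1. In SLC1A5 a single library stood apart as well. Its transcript ENST00000593713 had 59.3 and 0.496 FPKM in si-YTHDF3 libraries and 59.2 and 53.3 FPKM in NC libraries, and ENST00000412532 had 60.85 and 106 FPKM in si-YTHDF3 libraries and 60.5 and 58.8 FPKM in NC libraries. The first transcript was nearly absent and the second highest in si-YTHDF3 replicate 2, while the gene sums of the groups overlapped. SLC38A10 showed such a shift within NC, where ENST00000288439 had 37.2 and 8.27 FPKM, against 29.4 and 23.6 FPKM in si-YTHDF3.

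**Figure D4:**
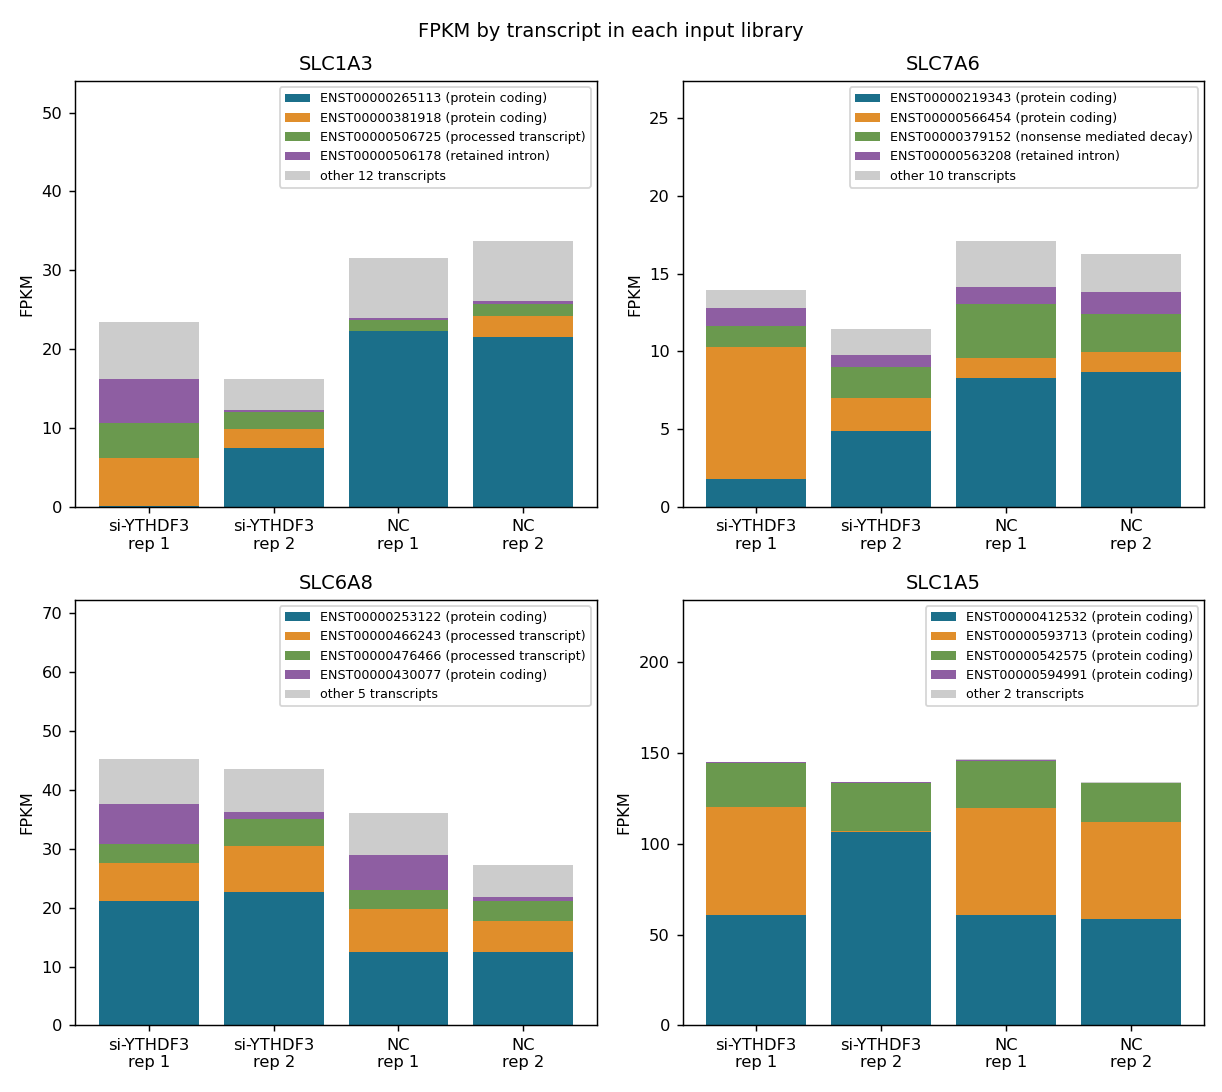
FPKM of the 4 most abundant transcripts and of all other transcripts together (stacked bars) of SLC1A3, SLC7A6, SLC6A8 and SLC1A5 in each si-YTHDF3 and NC input library. The blue transcript of SLC1A3 was at 0.0575 and 7.39 FPKM in si-YTHDF3 and near 22 FPKM in NC, the blue transcript of SLC6A8 was higher in both si-YTHDF3 libraries, and SLC1A5 lacked its orange transcript only in si-YTHDF3 replicate 2.

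Between the libraries of 1 group, 15 of the 87 member transcripts differed at least 2-fold in si-YTHDF3 and 8 in NC, on the log2(FPKM + 1) scale. The summed genes were steadier, with 1 of 30 genes in si-YTHDF3 and 0 in NC, and the 1 gene was SLC36A4. Its transcript ENST00000534116 had 5.11 and 0.241 FPKM in si-YTHDF3 libraries and 5.15 and 0.640 FPKM in NC libraries. It was thus high in replicate 1 and low in replicate 2 of both groups. This transcript and ENST00000381918 of SLC1A3 were singled out after their values had been seen. Both transcripts of SLC38A2 with the highest FPKM, ENST00000551374 and ENST00000549258, were lower in both si-YTHDF3 libraries, with 79.2 and 68.2 FPKM in si-YTHDF3 against 94.1 and 84.3 FPKM in NC for ENST00000551374. No member transcript was at 0 in one group and at 1 FPKM or more in the other.

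The 13 members below 1 FPKM were SLC1A2, SLC3A1, SLC6A3, SLC6A4, SLC6A12, SLC6A13, SLC7A4, SLC7A7, SLC7A9, SLC7A10, SLC36A2, SLC38A4 and SLC38A8. Their values lay between 0 and 0.746 FPKM, and 7 of the 13 were above 0 in all 4 libraries. Among them were carriers known from neurons and glia, such as the dopamine transporter SLC6A3, the serotonin transporter SLC6A4 and the glutamate carrier SLC1A2, and the kidney and gut pair SLC3A1 and SLC7A9, which takes up cystine. They were not tested, and their level limits what could be seen of them. Near-identical copies also bear on SLC7A5, whose pseudogenes SLC7A5P1 and SLC7A5P2 were listed at means of 1.16 and 2.35 FPKM.

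Promoter windows of 33 of the 43 members, from 250 bases before to 50 bases after an annotated start, were found in the RefSeq table of build GRCh38.p14. Genes of amino acid uptake are known targets of ATF4, a transcription factor made when amino acids run short, which binds with C/EBP partners to the element TGATGNAA. On either strand (TTNCATCA on the reverse), windows of 6 of the 33 members held it, out of 54 windows of these members. Of all 35116 promoter windows 3.62% held it, a share counted per window and not per gene. The matches are shown because they put the letters beside the measured values, and the matching letters are in capitals, 5′ to 3′ on the strand of the gene:
SLC1A3: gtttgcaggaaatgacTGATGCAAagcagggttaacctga
SLC1A4: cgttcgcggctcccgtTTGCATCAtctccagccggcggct
SLC1A5: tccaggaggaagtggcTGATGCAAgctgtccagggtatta
SLC38A1: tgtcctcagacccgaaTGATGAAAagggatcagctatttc
SLC3A2: taatgtgcaggactccTTACATCAgctcc
SLC7A1: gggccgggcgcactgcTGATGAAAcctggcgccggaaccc

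The stretches lie at chr5:36596352-36596391, chr2:64989376-64989415 and chr11:62881720-62881748 on the plus strand, and at chr19:46784888-46784927, chr12:46266497-46266536 and chr13:29595658-29595697 on the minus strand. The SLC1A3 stretch lies before the first base that the expression data gave for that gene, at another annotated start. Those of SLC1A4, SLC1A5, SLC38A1 and SLC3A2 lie at annotated starts inside the span given for their gene. Which start the measured RNA came from was not tested. A match is a run of letters and does not show that a factor was bound. The log2 fold changes of the 6 genes were -0.72 for SLC1A3, -0.40 for SLC1A4, -0.32 for SLC38A1, -0.02 for SLC3A2, -0.01 for SLC1A5 and 0.22 for SLC7A1. Genes with the element thus ran from the lowest member to one of the 4 whose si-YTHDF3 libraries were the higher. The E-box CACGTG reads the same on both strands and is bound by MYC, TFEB and their relatives. Of all windows 7.26% held it, again counted per window, as did windows of 9 of the 33 members. These were SLC1A5, SLC36A1, SLC38A5, SLC38A7, SLC43A1, SLC6A16, SLC7A5, SLC7A7 and SLC7A8, and they too included genes with values above and below 0.

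The genes that sense, use or carry amino acids elsewhere in the cell were counted as lists around the transporters. None of the genes in the 5 lists passed the adjusted threshold (limma). Of 32 genes of amino acid sensing by mTORC1, 0 were higher and 3 were lower at an unadjusted limma p under 0.05, against 8.29% and 6.53% of all genes tested. Their median log2 fold change was 0.00, with 16 genes above 0 and 16 below, against 52.0% and 48.0% of all genes tested. RRAGD, a GTPase that brings mTORC1 to the lysosome, had 1.70 and 2.40 FPKM in si-YTHDF3 libraries and 5.22 and 5.77 FPKM in NC libraries (log2 fold change -1.10, limma adjusted p = 0.140). SESN3, a sestrin, and FNIP1, a partner of folliculin, had log2 fold changes of -0.64 and -0.45. The groups did not overlap in these 3 genes, while 7 genes of the list lay apart in each direction, against 25.3% of all genes tested higher and 23.7% lower.

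Of 12 tested genes that make or use glutathione and cysteine, 0 were higher and 1 was lower at that threshold, where 8.29% and 6.53% of all genes tested were. This was CHAC1, an enzyme that degrades glutathione and a target of ATF4, with 3.17 and 3.88 FPKM in si-YTHDF3 libraries and 7.80 and 12.0 FPKM in NC libraries (log2 fold change -1.24, SE 0.22, limma adjusted p = 0.164). Both si-YTHDF3 libraries were below both NC libraries. With single libraries left out, its adjusted p was 0.367 (si-YTHDF3 replicate 1), 0.552 (si-YTHDF3 replicate 2), 0.0382 (NC replicate 1) and 0.140 (NC replicate 2). GSR, which reduces glutathione, had a log2 fold change of -0.28 with overlapping groups, and GCLC, which begins its synthesis, one of -0.27 with groups apart. Over the list 7 genes had a log2 fold change above 0 and 5 below, where 52.0% and 48.0% of all genes tested did. Here 3 genes, GGT1, GSS and CTH, lay apart and higher and 2 apart and lower. Of all genes tested, 25.3% lay apart and higher and 23.7% apart and lower. Of 9 tested genes of glutamine use 0 passed that threshold in either direction, 2 had a log2 fold change above 0 and 7 below, against 52.0% and 48.0% of all genes tested. ASNS, asparagine synthetase, had 70.3 and 51.2 FPKM in si-YTHDF3 libraries and 80.9 and 79.2 FPKM in NC libraries (log2 fold change -0.41, limma adjusted p = 0.356). GPT2, which makes alanine and alpha-ketoglutarate in mitochondria, lay the other way, with 15.3 and 14.9 FPKM in si-YTHDF3 libraries and 11.6 and 12.4 FPKM in NC libraries (log2 fold change 0.31, limma adjusted p = 0.342).

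Of 7 genes of serine and glycine use, 0 were higher and 1 was lower at an unadjusted limma p under 0.05, against 8.29% and 6.53% of all genes tested. The log2 fold change was above 0 in 4 of them and below 0 in 3, against 52.0% and 48.0% of all genes tested. The lower gene was the mitochondrial folate enzyme MTHFD2, with 63.8 and 64.9 FPKM in si-YTHDF3 libraries and 80.0 and 89.3 FPKM in NC libraries (log2 fold change -0.39, limma adjusted p = 0.280). SHMT2, which splits serine in mitochondria, had a log2 fold change of 0.30 with overlapping groups. Of 12 tested carriers of amino acids from other families, 0 were higher and 1 was lower at that unadjusted limma threshold, against the same 8.29% and 6.53%. Of these carriers 4 had a log2 fold change above 0 and 8 below, against the same 52.0% and 48.0%. The lower gene was SLC15A4, a lysosomal carrier of histidine and peptides, with 9.001 and 6.73 FPKM in si-YTHDF3 libraries and 11.2 and 11.1 FPKM in NC libraries (log2 fold change -0.47, limma adjusted p = 0.312). SLC25A15, the mitochondrial ornithine carrier, lay the other way with a log2 fold change of 0.32.

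No member was among the 90 genes of the 99 differential m6A peaks analysed here. The peaks lay on 1 chromosome only, chromosome 1, which holds 2 of the 43 members, SLC6A17 and SLC6A9. For the other 41 members no peak data were analysed here.

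**Figure D5:**
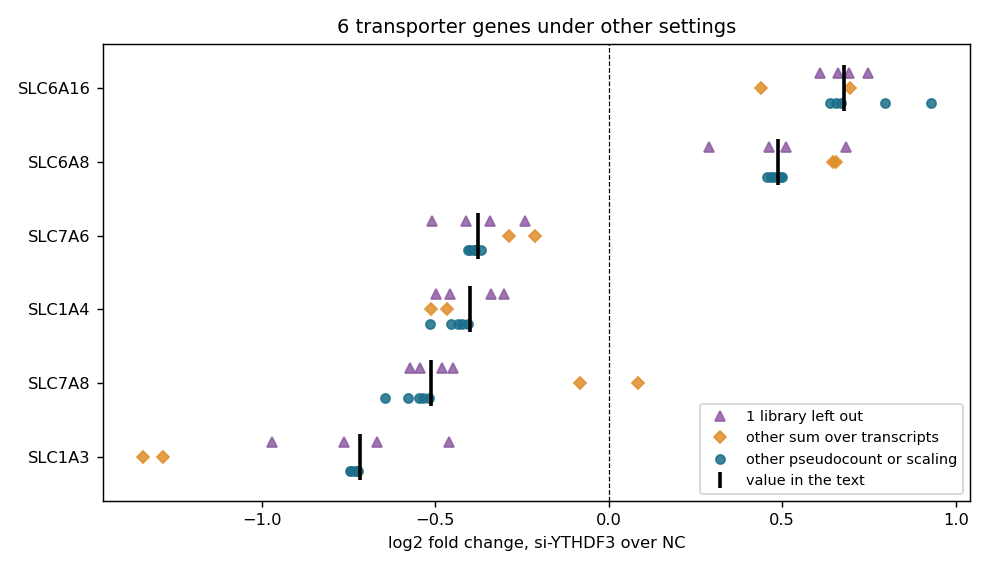
Log2 fold change of si-YTHDF3 over NC for the 6 transporter genes at an unadjusted limma p under 0.05 (black bars) and under other pseudocounts and scalings (circles), other sums over transcripts (diamonds) and with 1 library left out (triangles). SLC7A8 reached 0.08 with protein-coding transcripts alone, and the other 5 genes stayed on their side of 0 in the settings drawn.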

How the data were processed

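RNA of HCT116 cells was sequenced as input and as m6A precipitate in 8 libraries, and the expression values of the 4 input libraries were analysed. Deposited by the authors were FPKM values of Ensembl transcripts in each input library. The deposited peak list gave a fold enrichment ratio per differential m6A peak, called over both conditions together, and was read here only for gene names. The deposited fold changes, p-values and q-values of the authors' own comparisons were not used. The submitters' processing notes name GRCh38. The aligner, quantifier and peak caller are not given in the sources read. FPKM do not keep read numbers, so depth is unknown and no counting interval is given.

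FPKM were summed per gene, and genes, and separately transcripts, that averaged 1 FPKM or more were tested as log2(FPKM + 1) with limma 3.58.1 (lmFit, eBayes with a mean trend, two-sided) in R 4.3.3, without covariates. Benjamini-Hochberg adjustment ran over all genes or transcripts tested, at 0.05. Since FPKM are no counts, count models were not used. The test was also run on simulated data with known differences, whose levels and spread were taken from these libraries.

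Members, pathway lists, marker lists and the naming rule were chosen with earlier results of these data known. By that rule each tested member is named, and values in every library are given for those at an unadjusted p under 0.05, with an absolute log2 fold change of at least 0.5, or among the 8 highest. Some others are given in every library as well. Transcripts at 5 FPKM or more in a group mean and up to 3 genes per list with the largest change could be named. Alternatives covered pseudocounts, filters, scalings, sums over transcripts, the variance trend, the replicate block and each library left out. Length-weighted sums and the crossed block were chosen after seeing the data. Promoter sequences are from RefSeq, and figures were drawn with matplotlib 3.10.9.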

Additional observations from a re-analysis of the deposited data

How the results depend on the processing

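With 2 libraries a group and no read numbers, precision rests on the spread between libraries. No member gene or transcript passed the adjusted threshold in any setting (limma). Over all genes tested, 4 higher and 0 lower genes passed, and this count ranged from 0 and 0 (no filter, protein-coding transcripts alone, the crossed block, or without si-YTHDF3 replicate 1 or 2) to 81 and 51 with the replicate block; it was 13 and 2 with a 5 FPKM filter, 41 and 26 without NC replicate 1 and 37 and 19 without NC replicate 2. The deviations from the group means had a correlation of -0.112 between libraries of equal replicate number. With 2 libraries a group the crossed value, 0.112, is always the same with the opposite sign. Whether the replicate numbers pair the libraries is therefore not settled. With the replicate numbers as a block, 2 member genes were higher and 2 lower at an unadjusted limma p under 0.05. Among transcripts, 1 was higher and 0 lower. The adjusted limma p became 3.1e-04 for YTHDF3, 0.0193 for RRAGD and 0.00827 for CHAC1. The crossed block gave 3 member genes higher and 4 lower, and an adjusted limma p of 0.204 for each of YTHDF3, RRAGD and CHAC1. With a 5 FPKM filter 1 member gene was higher and 2 were lower, 1 transcript was higher and 0 lower, and the transcript median was 0.0396, against -0.01 as reported; both counts cover fewer genes. A pseudocount of 0.1 left 1 transcript higher and 0 lower, and protein-coding transcripts alone left 2 genes lower. Equal FPKM sums, the median of ratios and quantile scaling each gave 2 member genes higher and 6 lower, and a pseudocount of 0.1 gave 2 and 5. Over all genes at that threshold, 1199 were higher and 944 lower as reported, and 1050 and 1113 with equal FPKM sums. Leaving out each library in turn gave 1 to 2 genes higher (2 only without NC replicate 1), 1 to 4 lower (1 without si-YTHDF3 replicate 2, 2 without NC replicate 1), 2 to 5 transcripts higher, 1 to 4 transcripts lower, and medians of -0.15 to 0.0422 for genes and -0.12 to 0.11 for transcripts.

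The 6 members at an unadjusted p under 0.05 kept their direction in the settings run, except SLC7A8, at 0.0835 with protein-coding transcripts alone. Their sizes depended on the sum over transcripts. With length-weighted sums SLC1A3 was at -1.29, SLC1A4 at -0.47, SLC7A6 at -0.29, SLC7A8 at -0.08, SLC6A16 at 0.44 and SLC6A8 at 0.65. Directions also turned in other members and in PSPH. Protein-coding transcripts alone gave -0.0419 for SLC43A1, -0.42 for SLC38A6 and 0.0021 for SLC38A3. Length-weighted sums gave 0.16 for SLC1A5, 0.0346 for SLC43A3, -0.35 for SLC43A2 and -0.0058 for SLC7A2. Equal FPKM sums gave -0.0133 for SLC38A6 and -0.0026 for SLC7A2, and quantile scaling gave -0.0081 for SLC7A5, -0.0369 for SLC38A6 and -0.0288 for SLC7A2. Left-out libraries gave ranges of -0.0593 to 0.14 for SLC7A5, -0.15 to 0.10 for SLC3A2, -0.0690 to 0.0561 for SLC1A5, -0.18 to 0.40 for SLC38A5, -0.19 to 0.12 for SLC43A3, -0.16 to 0.0537 for SLC6A6, -0.17 to 0.0030 for SLC6A17, -0.79 to 0.29 for SLC36A4, -0.0360 to 0.13 for SLC38A7, -0.39 to 0.12 for SLC6A9, -0.14 to 0.36 for SLC43A2, -0.13 to 0.46 for SLC43A1, -0.13 to 0.15 for SLC38A6, -0.44 to 0.0768 for SLC38A3, -0.10 to 0.13 for SLC7A2 and -0.32 to 0.0187 for PSPH. The cause of these changes was not tested. The filter, variance trend and block settings leave the log2 fold change itself unchanged, so no direction could turn in them. No gene compared passed the adjusted threshold as reported, so none could lose it. Of 723 comparisons of a single gene with its value in another setting, 679 kept direction and side of the threshold, 6 newly passed it and 38 turned round.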
